A study of Mus musculus with 18 samples.

Results

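Dppa2, Dppa3, Dppa4 and Dppa5a, 4 genes first named as developmental pluripotency associated, and 5 further genes known for expression in embryonic stem (ES) cells, Tdh, Lin28a, L1td1, Zscan10 and Trim71, were followed in nascent RNA. They were chosen by name, as the rows of the gene table that carry these symbols, and make up 9 of 21859 genes. Of the 9, 8 also had a row among the 32253 promoter upstream transcripts (PROMPTs), short unstable RNAs that start near a promoter and run away from the gene on the other strand. Lin28a had none. All levels below are pooled means, taken here as over the 18 libraries of the study, that is, over control and SPT16-depleted cells together. The description of these means does not name the libraries behind them.

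The study asked how transcription depends on FACT, the histone chaperone made of SPT16 and SSRP1 that takes nucleosomes apart and puts them back as RNA polymerase II passes. Mouse E14 ES cells with the plant F-box protein osTIR1 integrated at Rosa26 were either left untagged or carried a mini-AID degron and V5 tag on SPT16, in 2 homozygous clones that were derived and selected separately. In the tagged clones, the auxin 3-IAA leads osTIR1 to mark SPT16 for destruction. Each of the 3 lines was treated for 24 h with 3-IAA (500 nM in the labels, although the methods of the study state micromolar) or with 0.1% ethanol as vehicle, with 3 libraries for each of the 6 groups. The groups are Untagged_EtOH, SPT16_AID_V5_Clone1_EtOH, SPT16_AID_V5_Clone2_EtOH, Untagged_3-IAA, SPT16_AID_V5_Clone1_3-IAA and SPT16_AID_V5_Clone2_3-IAA. All cells carried osTIR1, grew in serum with LIF and 2i, and were labelled with 4-thiouridine for 5 min, after which labelled RNA was isolated and sequenced (TT-seq). The repeats of a line are technical replicates in the study's own terms, and the 2 clones are its biological replicates.

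The 9 genes act at different levels of the stem cell programme. DPPA2 and DPPA4 are SAP-domain proteins that bind chromatin as a pair, keep developmental promoters free of DNA methylation and help to switch on cleavage-stage genes. DPPA3, also known as Stella or PGC7, holds the maintenance methylation factor UHRF1 away from DNA, and DPPA5A is a small protein of the KH family of RNA-binding domains. TDH, threonine dehydrogenase, feeds threonine into glycine and acetyl-CoA, a route on which mouse ES cells depend. LIN28A, L1TD1 and TRIM71 bind RNA: LIN28A blocks maturation of the let-7 microRNAs, TRIM71 is itself a let-7 target and represses messenger RNAs, and L1TD1 derives from the first open reading frame of a LINE-1 element. ZSCAN10 is a SCAN-domain zinc finger transcription factor.

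The genes differed in how much of their exon sequence is found nowhere else in the genome. This bears on every level below, because the study kept only reads that aligned to a single place. Each exon was cut into all overlapping words of 31 bases, and each word was looked up on both strands of the 21 chromosomes of GRCm38. In Dppa5a 78.6% of 529 exon words occurred more than once, in Dppa4 61.5% of 1452, in Dppa2 54.3% of 2207 and in Dppa3 50.1% of 742. The share was 22.0% in Tdh, 11.7% in Lin28a, 10.9% in L1td1, 3.40% in Trim71 and 0.336% in Zscan10. At this word length the 4 Dppa genes were above the other 5. Over 17 ES cell marker genes the same share had a median of 1.64% and ran from 0% to 44.8%, which is below each of the 4 Dppa genes at 31 bases but not at longer words, as given after the sequences. Over whole gene spans, introns included, the share was lower in Dppa4 (26.5%), Dppa2 (18.1%) and Dppa3 (16.8%), but 84.7% in Dppa5a. In the other 5 genes it ran from 5.85% to 7.97% of the span. Which of the 2 shares applies is unknown, since exons or gene bodies may have been counted.

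The other copies lay mainly in annotated pseudogenes. A copy locus was taken as a place outside the gene with at least 100 exon words, among words with at most 10 copies. Dppa5a had 6 such loci, all 6 with a pseudogene, and the largest were its neighbours Dppa5b (chr9:78245502-78246600) and Dppa5c (chr9:78271950-78273046), each with 64.8% of the exon words. Dppa2 had 4 loci, of which the pseudogene Gm9788 on chromosome 19 (chr19:41459797-41461499) held 48.8% of the exon words. Dppa4 had 2, and its pseudogene Gm14058 on chromosome 2 (chr2:122214113-122215373) held 40.0%. Dppa3 had 1, the pseudogene Dppa3-ps on the X chromosome (chrX:37625379-37626149), with 48.0%. Tdh had 1 locus with 21.0% of its exon words, in the pseudogene Gm13929. The single loci of Lin28a and Trim71 held no annotated pseudogene, and Zscan10 had no locus.

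Coding stretches of the 4 Dppa genes, with one of Zscan10 for contrast, show which bases lie in repeated words. Each is the longest annotated coding block of the gene, limited to its first 300 bases, read 5′ to 3′ on the strand of the gene from GRCm38. Capitals mark bases that lie in at least 1 word of 31 bases found once in the genome, and lower case marks bases that lie in none within the stretch.
Dppa2, chr16:48315662-48315917, strand +: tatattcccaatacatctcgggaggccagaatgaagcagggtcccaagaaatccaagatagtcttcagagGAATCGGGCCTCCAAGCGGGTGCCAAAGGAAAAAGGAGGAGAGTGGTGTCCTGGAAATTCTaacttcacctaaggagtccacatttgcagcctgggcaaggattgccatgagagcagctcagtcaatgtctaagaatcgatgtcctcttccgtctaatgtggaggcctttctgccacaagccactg
Dppa3, chr6:122628577-122628809, strand +: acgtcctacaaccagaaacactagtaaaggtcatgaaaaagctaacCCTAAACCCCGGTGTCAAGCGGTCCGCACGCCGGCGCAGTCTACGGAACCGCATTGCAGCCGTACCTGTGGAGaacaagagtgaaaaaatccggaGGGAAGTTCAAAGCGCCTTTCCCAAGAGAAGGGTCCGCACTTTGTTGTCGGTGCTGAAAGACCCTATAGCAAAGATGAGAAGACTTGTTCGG
Dppa4, chr16:48291014-48291313, strand +: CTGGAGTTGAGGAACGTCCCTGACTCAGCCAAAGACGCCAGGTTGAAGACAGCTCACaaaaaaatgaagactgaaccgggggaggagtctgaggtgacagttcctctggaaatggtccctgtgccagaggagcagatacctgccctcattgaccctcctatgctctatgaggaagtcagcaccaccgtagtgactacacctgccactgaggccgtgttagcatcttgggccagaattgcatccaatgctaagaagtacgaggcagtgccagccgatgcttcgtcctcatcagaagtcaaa
Dppa5a, chr9:78367721-78367903, strand -: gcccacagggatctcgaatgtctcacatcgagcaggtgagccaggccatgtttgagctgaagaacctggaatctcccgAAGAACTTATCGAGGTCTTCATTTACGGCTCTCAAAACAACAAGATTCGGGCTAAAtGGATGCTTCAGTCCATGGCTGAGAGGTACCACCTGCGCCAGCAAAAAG
Zscan10, chr17:23609267-23609566, strand +: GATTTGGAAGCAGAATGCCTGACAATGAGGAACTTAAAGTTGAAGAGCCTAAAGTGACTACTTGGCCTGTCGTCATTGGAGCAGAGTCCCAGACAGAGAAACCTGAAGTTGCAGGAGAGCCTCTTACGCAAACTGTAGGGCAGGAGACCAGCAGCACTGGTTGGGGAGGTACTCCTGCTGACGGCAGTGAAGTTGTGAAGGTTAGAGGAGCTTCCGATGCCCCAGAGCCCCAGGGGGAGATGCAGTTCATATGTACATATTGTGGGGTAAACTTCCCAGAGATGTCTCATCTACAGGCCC
Bases within a word found once made up 19.0% of the stretch of Dppa4, 23.8% of that of Dppa2, 56.8% of that of Dppa5a and 70.8% of that of Dppa3. In Zscan10 the whole stretch was in capitals, as were the stretches of Lin28a, L1td1 and Trim71 taken in the same way.

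**Figure D1:**
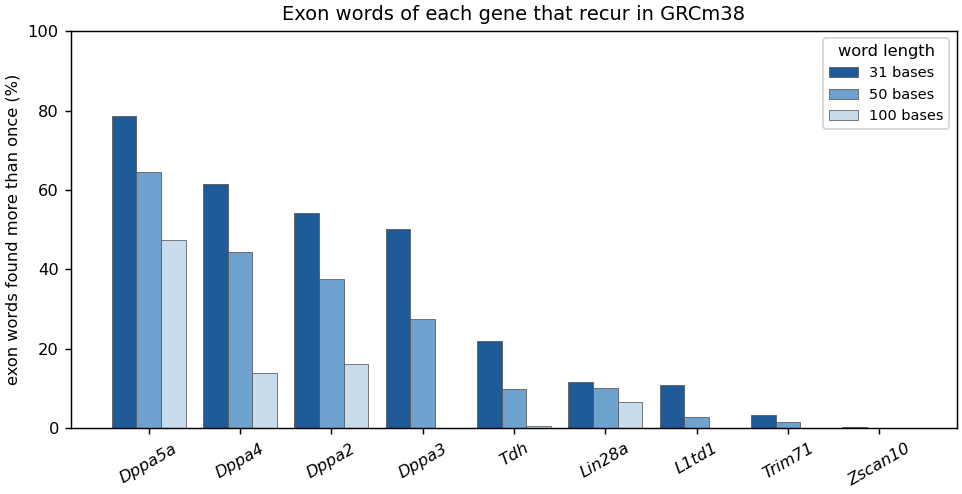
Percent of the exon words of each gene that occur more than once in GRCm38, on the y axis, for words of 31, 50 and 100 bases (dark to light bars). Dppa5a had the highest share at each word length, at 78.6%, 64.6% and 47.5%, whereas the bars of Zscan10 are at 0.336%, 0% and 0%.

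Longer words, as longer reads would give, were found once more often. At 100 bases the repeated share was 47.5% in Dppa5a, 16.2% in Dppa2, 14.0% in Dppa4 and 0% in Dppa3. Dppa3 was then below Lin28a (6.67%), Tdh (0.474%) and Trim71 (0.157%), so that the 4 Dppa genes no longer stood above the other 5, and Dppa5a had the highest share of the 9. The highest of the 17 ES cell markers was 34.2% at 50 bases (Zfp42), above Dppa3 at 27.6%, and 17.3% at 100 bases (Pou5f1), above Dppa2, Dppa4 and Dppa3. The windows of 1 kb upstream of the annotated genes, the kind of window in which PROMPTs were counted, were mostly found once, with 87.2% of 31-base words in Dppa4 as the lowest value and 100% in Dppa2 as the highest.

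The pooled mean normalised count, the mean over libraries of read counts divided by each library's size factor, ran from 135 for Dppa3 to 38255 for Trim71. Trim71 was 78th of 20157 genes with reads, the 99.6th percentile. Tdh had 15417 (96.3rd percentile), L1td1 14534 (95.8th), Dppa5a 6507 (87.0th), Zscan10 3665 (78.4th), Dppa2 2205 (71.0th), Dppa4 1788 (67.8th) and Lin28a 1573 (65.9th). Dppa3, at the 40.0th percentile, was the only member of the 9 below the median of all genes with reads, which was 421. In such pooled cell samples, fewer cells that transcribe a gene and less RNA per cell cannot be told apart.

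Per length, the order changed. The mean per kb of annotated exon was 10513 in Dppa5a, 5896 in Tdh, 4579 in L1td1 and 4099 in Trim71, and these 4 of 9 genes were above the 98th percentile of all genes. Dppa5a was 29th of 20140 genes with a length, the 99.9th percentile. The next values were 1283 in Zscan10, 1076 in Dppa4 and 901 in Dppa2, all above the upper quartile of all genes, 638 per exon kb. Lin28a followed with 394 (66.2nd percentile) and Dppa3 with 151 (52.5th percentile). Dppa5a was 69.5 times Dppa3 and 9.77 times Dppa4 per exon kb. Since it is unknown whether exons or gene bodies were counted, the means per kb of gene span are given too: 5779 in Dppa5a, 1237 in L1td1, 921 in Tdh, 668 in Trim71, 361 in Zscan10, 170 in Dppa4, 139 in Dppa2, 101 in Lin28a and 35 in Dppa3. On that scale L1td1 came before Tdh, and Dppa5a was 165 times Dppa3 and 34 times Dppa4. Per kb of exon words found once, a measure chosen after seeing the data, the 4 Dppa genes had 2.41 to 5.48 times their values per exon kb. Dppa4 (3198) and Dppa2 (2185) then came before Zscan10 (1374). This length also leaves out word starts near exon ends, so it does not count repeats alone. On this measure Dppa5a was 158 times Dppa3 and 18 times Dppa4. Trim71, highest by mean and below Dppa5a, Tdh and L1td1 per length, has 9.33 kb of exon, against 0.619 kb in Dppa5a. RefSeq gives Trim71 the same start but a shorter gene, 53102 bp against 57237 bp in Gencode. Its values and its place per length rest on the Gencode end, and other ends were not tried. The error of these values over libraries is unknown here, so it was not tested whether neighbours in the order, such as Dppa4 and Dppa2 (1.19 times apart) or L1td1 and Trim71 (1.12 times apart), differ beyond it.

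**Figure D2:**
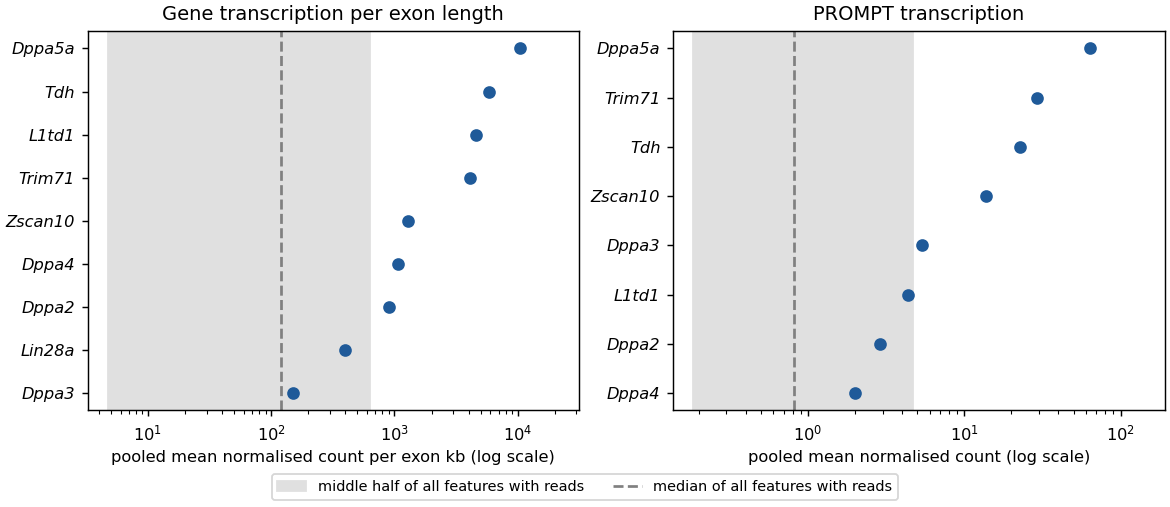
Left, pooled mean normalised count per exon kb of the 9 genes, and right, pooled mean normalised count of the 8 PROMPTs, each on a log axis, with the range from the lower to the upper quartile of all features with reads in grey and their median dashed. Of the 9 genes, 7 are right of the grey range, and of the 8 PROMPTs, 5 are.

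Among the chromatin regulators, Dppa2 and Dppa4 lie in tandem on chromosome 16, both on the plus strand, with Dppa4 (chr16:48283733-48294237, 7 exon blocks) 9670 bp before Dppa2 (chr16:48303908-48319723, 8 exon blocks). RefSeq starts Dppa2 further in, at chr16:48310274-48319513, a length of 9240 bp against 15816 bp in Gencode. The gap, the upstream window of Dppa2 and its order with Dppa4 per gene span rest on the Gencode start. Per exon kb Dppa4 had 1076 and Dppa2 had 901, and their PROMPT means were 1.99 and 2.87. Their repeated exon shares were 61.5% and 54.3%. Of 7 genes listed as their targets, 6 were matched in the table and Dux was not. The 6 had a median mean of 58.1 (34.2nd percentile), and the highest was Zscan4d at 301, followed by Zscan4c at 95.6, Zscan4f at 64.7, Zfp352 at 51.6, Tcstv3 at 11.5 and Tcstv1 at 1.29. Zscan4 and Tcstv genes are near-identical copies, so their values are uncertain under counting of single-place reads.

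Dppa3 (chr6:122626410-122630272, plus strand, 5 exon blocks) lies between 2 other ES cell genes. Gdf3, a TGF-beta family ligand, lies 16322 bp upstream on the minus strand, and Nanog, the homeodomain pluripotency factor, lies 77216 bp downstream. Their means per exon kb were 1213 and 6596, so that Gdf3 was 8.01 times and Nanog 43.6 times the 151 of Dppa3. These ratios were 3.60 and 29.7 per kb of exon words found once, and 18 and 59.2 per kb of gene span. The listed genes of DNA methylation and its removal had means of 11338 for Uhrf1, 12159 for the maintenance methyltransferase Dnmt1, 48572 for the dioxygenase Tet1, 29773 for Tet2 and 1116 for Tet3. Per exon kb these were 2662, 1648, 3142, 1765 and 66.8, so that Tet3 alone was below Dppa3.

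Dppa5a (chr9:78367052-78368177, minus strand, 3 exon blocks) was the shortest of the 9 genes, with a span of 1126 bp. Ooep, a relative in sequence that acts in the oocyte's maternal complex, lies 7931 bp upstream on the same strand. Ooep had a mean of 1355 and 634 per exon kb, against 10513 for Dppa5a. The other relatives were near the floor of the table, with means of 2.41 for Khdc3, 0.428 for Khdc1a, 0.307 for Khdc1b and 0.221 for Khdc1c. Dppa1, another gene of that name, had 6.73.

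Among the enzymes of threonine use, Tdh (chr14:63492347-63509092, minus strand, 10 exon blocks) had 5896 per exon kb. The annotation places the antisense gene Gm17232 within it, and the counting went by strand. Gcat, which takes the product of TDH on to glycine, had 209 and 121 per exon kb, and a further row under the same symbol had 0.563. The glycine cleavage genes had means of 5002 (Gldc), 1600 (Amt), 3239 (Gcsh) and 1822 (Dld). The folate-linked genes had 5372 (Shmt1), 2482 (Shmt2), 20666 (Mthfd1) and 1613 (Mthfd2). Over these 9 genes the median was 2482 (72.7th percentile), and per exon kb each was below Tdh, with Mthfd1 the nearest at 4652.

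Among the RNA-binding proteins of the let-7 axis, Lin28a (chr4:134003330-134018841, minus strand, 7 exon blocks) had 394 per exon kb, and its paralogue Lin28b had 97.2. Trim71 (chr9:114507133-114564369, minus strand, 4 exon blocks), a target of let-7, had 4099. Other listed genes of the let-7 axis were at means of 13030 for the uridylyl transferase Tut4, 6473 for Tut7, 10444 for the exonuclease Dis3l2 and 20363 for Drosha. Dgcr8 had 9783, the exporter Xpo5 7851, Dicer1 7137 and Ago2 34550. Per exon kb these were 1501, 439, 1173, 3431, 1271, 1145, 426 and 2462, in the same order, so that Tut7 and Dicer1 were near the 394 of Lin28a. The 9 genes of this list, Lin28b included, had a median mean of 9783 (92.1st percentile), and 8 of them had a mean of at least 1000. Per exon kb their median was 1173 (86.1st percentile). A coding gene on the opposite strand, C130032M10Rik, lies inside Trim71, and the non-coding Gm13061 covers the start of Lin28a from the opposite strand.

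L1td1 (chr4:98726734-98738480, plus strand, 4 exon blocks) had 4579 per exon kb and Zscan10 (chr17:23600856-23611019, plus strand, 6 exon blocks) had 1283. In L1td1 10.9% of exon words were repeated and the word with most copies occurred 58643 times. In Zscan10 no exon word occurred more than 2 times.

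Levels of cell type markers were compared with the label of ES cells. Of 17 ES cell markers all had reads and 16 had a mean of at least 1000, with a median of 7578 (89.0th percentile) against 3665 for the 9 genes. Tfcp2l1 was highest at 72140 and Utf1 lowest at 248. None of the other cell type lists had a gene at 1000 or more: the medians were 17.3 for 6 fibroblast feeder genes (highest Pdgfrb, 952), 54.6 for 6 primitive endoderm genes (Gata4, 455), 56.6 for 5 trophectoderm genes (Gata3, 186), 5.42 for 5 neural genes (Sox1, 245) and 117 for 6 primitive streak and mesoderm genes (T, 208). Dppa3, with a mean of 135, was below the highest gene of each of these lists, and per exon kb (151) it was below Pdgfrb (174). The study grew its cells without feeders. Since the means pool all groups, these values do not show in which libraries such genes were transcribed.

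**Figure D3:**
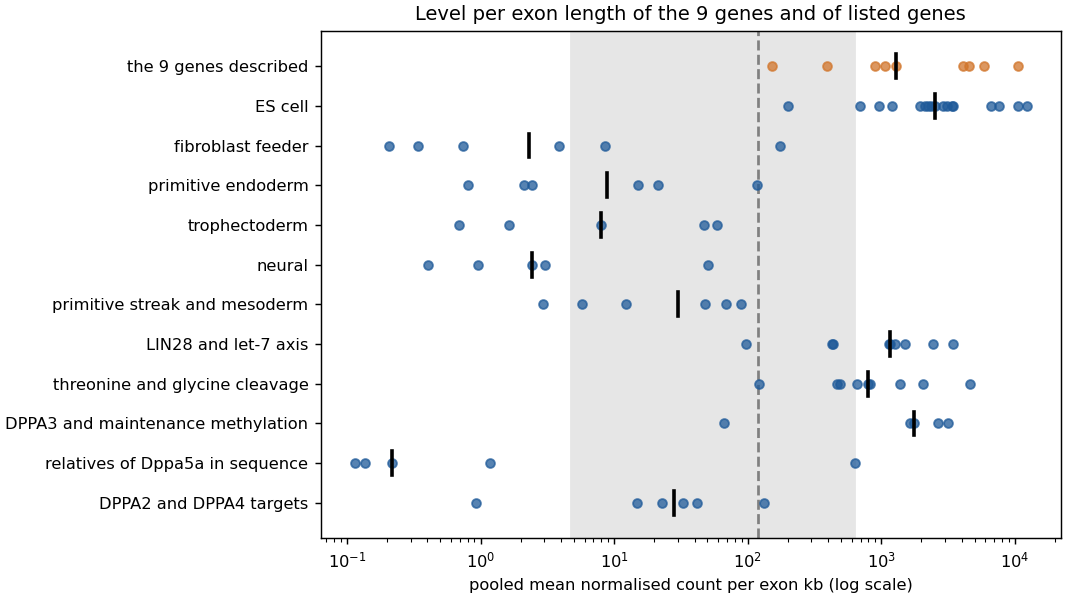
Pooled mean normalised count per exon kb, on a log axis, of the 9 genes (orange) and of the genes of 11 lists (blue), 1 point a gene, with the median of each list as a black bar and the quartile range and median of all genes in grey and dashed. The 9 genes have a median of 1283, below the 2515 of the ES cell markers and above the 30.1 of the primitive streak and mesoderm genes, the highest of the other cell type lists.

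PROMPT rows had low means. Their median was 0.815 over 23257 PROMPTs with reads, in a table that was normalised on its own, so that percentiles within each table are set side by side. The PROMPT of Dppa5a was highest, with a pooled mean of 63.7 (97.4th percentile). Trim71 had 29.3 (93.4th), Tdh 22.7 (91.7th), Zscan10 13.7 (87.0th), Dppa3 5.32 (76.7th), L1td1 4.39 (74.2nd), Dppa2 2.87 (68.4th) and Dppa4 1.99 (63.2nd). All 8 were above the median of PROMPTs with reads and 5 of 8 above the upper quartile, which was 4.67. Among PROMPTs with a mean of at least 1, however, 3 of the 8 were below the median: L1td1 at the 44.9th percentile, Dppa2 at the 32.4th and Dppa4 at the 21.2nd. Of the ES cell markers, 15 of 17 had a PROMPT row and 14 of these 15 were above that quartile.

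The low PROMPT values rest on few reads. From the values that a single read gives in the table, the PROMPT of Dppa4 stood for between 16 and 74 reads over all 18 libraries, and that of Dppa2 for between 23 and 107. The PROMPT of L1td1 stood for between 35 and 164 reads, that of Dppa3 for between 42 and 199, and that of Dppa5a for between 495 and 2390. Gene rows were deeper, with at least 1172 reads for Dppa3 and at least 331964 for Trim71.

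The gap between gene and PROMPT percentiles depended on which features set them. Among features with reads, Dppa3 was 36.7 points lower as a gene than as a PROMPT, and L1td1 was 21.6 points higher. The other 6 were within 10.4 points. Among features with a mean of at least 1 in each table, where the many lowest PROMPTs no longer count, the gene was higher than the PROMPT by 50.3 points in L1td1, 42.1 in Dppa4, 34.5 in Dppa2, 13.6 in Trim71, 13.5 in Tdh and 3.1 in Zscan10. The PROMPT was then higher by 18.5 points in Dppa3 and by 9.3 in Dppa5a. Under both, the PROMPT was thus higher in Dppa3 and Dppa5a, and the gene was higher in L1td1, Tdh, Trim71, Dppa2 and Dppa4. Zscan10 turned, and the order of the gaps was not the same. Among all rows, with or without reads, the PROMPT was higher by 4 points in Dppa2 and 3.1 in Dppa4. For each 100 units of gene mean the PROMPT mean was 3.94 in Dppa3, 0.979 in Dppa5a, 0.375 in Zscan10, 0.148 in Tdh, 0.130 in Dppa2, 0.111 in Dppa4, 0.0766 in Trim71 and 0.0302 in L1td1. The median of this ratio over 13712 genes with both was 0.340, which 3 of the 8 exceeded. Across those genes, gene and PROMPT means had a Spearman rho of 0.409, a description across genes that share the same libraries. Repeated sequence differs between the 2 measures, since 50.1% of exon words and 7.42% of upstream words were repeated in Dppa3, and its part in the gap was not tested. For Zscan10, a transcript of another coding gene lies 369 bp from the upstream 1 kb, and for which transcript start each PROMPT was counted is not known here.

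**Figure D4:**
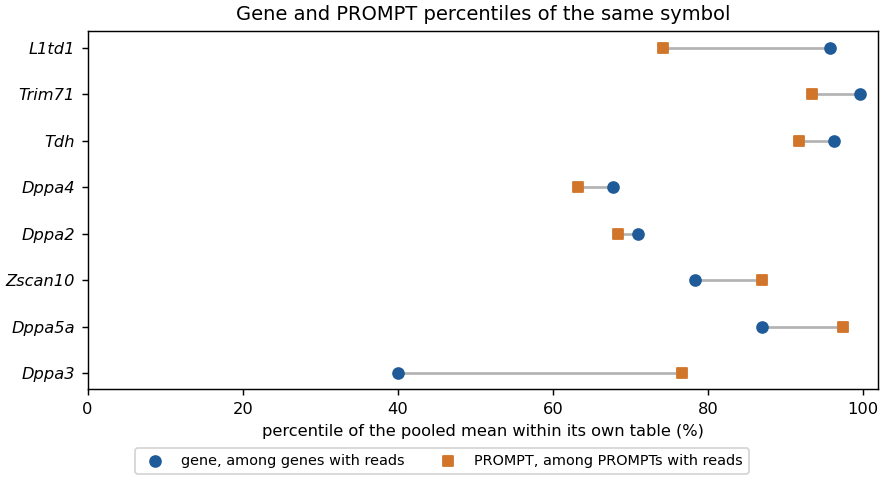
Percentile of the pooled mean within its own table, on the x axis, for the gene (blue circles) and the PROMPT (orange squares) of the same symbol, 1 row for each of the 8 genes with both. Among these features with reads the grey line is longest for Dppa3, from 40.0 to 76.7, and next for L1td1, from 95.8 to 74.2, an order that turns among features with a mean of at least 1.

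Trim71 and L1td1 were 1.12 times apart per exon kb, at 4099 and 4579. Per kb of gene span they had 668 and 1237, and their gene means were 38255 and 14534, so how near they were depended on the length used. Their PROMPT means were 29.3 and 4.39. The 250 bases before their annotated starts, from which a PROMPT would run, are shown for that contrast, from RefSeq on GRCm38.p6 and read 5′ to 3′ on the strand of the gene. Capitals mark a GC box.
Trim71, chr9:114564370-114564619, strand -: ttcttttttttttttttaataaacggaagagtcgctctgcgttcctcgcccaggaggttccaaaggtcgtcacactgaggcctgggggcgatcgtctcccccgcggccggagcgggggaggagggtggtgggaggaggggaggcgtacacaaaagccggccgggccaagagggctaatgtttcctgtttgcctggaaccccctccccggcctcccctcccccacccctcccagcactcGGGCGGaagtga
L1td1, chr4:98726504-98726753, strand +: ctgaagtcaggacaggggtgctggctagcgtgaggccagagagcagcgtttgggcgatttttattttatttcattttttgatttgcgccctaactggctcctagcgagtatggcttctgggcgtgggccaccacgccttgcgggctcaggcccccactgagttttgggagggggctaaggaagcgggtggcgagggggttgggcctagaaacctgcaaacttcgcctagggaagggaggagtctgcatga
The table of promoters held 4 of the 9 genes, Lin28a, L1td1, Zscan10 and Trim71, and 32851 promoters in all. In windows of 250 bases before to 50 after the start, the GC content was 63.3% in Lin28a, 59.3% in Trim71, 58.7% in L1td1 and 50% in Zscan10, with a median of 52.7% over all promoters. The observed over expected frequency of CpG was 0.720 in Trim71 (72.5th percentile), 0.559 in L1td1, 0.351 in Lin28a and 0.215 in Zscan10 (30.9th percentile), with a median of 0.384.

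Exact matches to 6 motifs were looked for in the same windows, and the share of all promoters that hold each motif is given below. The windows were searched on both strands for the TATA box with the letters TATAAA, the GC box with GGGCGG, the CCAAT box with its own name, the octamer with ATGCAAAT, the SOX motif with CATTGT and the E-box with CACGTG. Trim71 held a GC box 12 bases before the start, and a CCAAT box that lay across the start or within the 50 bases after it. For Lin28a the start of the promoter table lies 25 bp inside the Gencode gene and 380 bp inside the RefSeq gene, so it is the outer end of neither. By that start, Lin28a held a SOX motif 96 bases before it and a GC box that lay across it or within the 50 bases that follow. L1td1 and Zscan10 held none of the 6. Of all promoters, 35.7% held the GC box, 37.4% the CCAAT box, 12.6% the SOX motif, 13.6% the TATA box, 7.15% the E-box and 1.74% the octamer. A match is a run of letters and was not tested as a binding site.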

How the data were processed

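Nascent RNA of 18 TT-seq libraries in 6 groups of 3 was used. After trimming in Trim Galore, the authors ran STAR against mm10, kept reads with a single alignment, counted read pairs by strand with featureCounts on Gencode vM25, and divided counts by DESeq2 size factors with no filter on expression. Whether exons or whole gene bodies were counted is not given in the sources used here. PROMPTs were counted by the authors within 1 kb upstream of and antisense to start sites away from other coding transcripts. The labels also name deepTools and HTSeq without versions.

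The deposited value used here, baseMean, is a signal: the mean over libraries of normalised counts, 1 per gene or PROMPT. The other 4 columns of each of the 4 deposited tables hold the authors' own comparison of depleted with control cells (log2 fold change, its standard error, p and adjusted p) and were not used. Without values per library, no comparison between groups, no error and no test could be computed. The tables of enhancer and other non-coding RNAs were not used here.

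Percentiles were taken among 20157 genes or 23257 PROMPTs with reads, with ties counted as 0.5. Lengths and positions came from Gencode vM21 on GRCm38, which matched 21817 of 21859 genes. Exon words were counted by a hash of each word over 21 chromosomes, and the count was tested on simulated data. Size factors of the libraries are known only from low means. A search found 18 values that 1 read in 1 library gives in each table, from 0.0216 to 0.115 for genes and from 0.0266 to 0.129 for PROMPTs. By these values the largest size factor was 5.34 times the smallest for genes and 4.84 times for PROMPTs. Total counts per library are not known here. The settings of that search (means under 0.25, shared by at least 10 genes or 50 PROMPTs) and its tolerance were chosen after others had been tried, with the number of libraries known. With the tolerance kept, a minimum of 6 to 12 genes gave 17 or 18 values, and one of 30 to 80 PROMPTs gave 14 to 18. These values could not be tied to groups. The summed mean, in units of 1000000, was 55.9 for genes and 0.241 for PROMPTs.

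The 9 genes and all lists were chosen with earlier results of these data known. Named genes were the 9 genes, listed partners of them, and the highest gene of each list. Protein sequences were not analysed here. Alternatives were other sets of features behind the percentiles, gene span or no length, the PROMPT to gene ratio, the bases before the start alone, and, chosen after seeing the data, words of 50 and 100 bases, gaps between percentiles under other sets of features, ratios between genes per gene span and levels per kb of words found once. Tools were Python 3.11.15, matplotlib 3.10.9, scipy 1.17.1, pandas 2.3.3 and numpy 2.4.6.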

Additional observations from a re-analysis of the deposited data

How the results depend on the processing

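No paired analysis was possible because the tables hold 1 mean over all libraries, and for the same reason no replicate could be left out. The values below are median percentiles unless said otherwise. For the 9 genes the median was 78.4 among genes with reads, 80.1 among all genes of the table, 75.4 among genes with a mean of at least 1 and 71.8 among those of at least 10. Per length it was 87.5 with exon length, 95.0 with gene span and 78.4 with no length. For the 8 PROMPTs it was 81.8 among PROMPTs with reads, 86.9 among all, 61.2 among those with a mean of at least 1 and 77.4 among those whose symbol is in the gene table. Of the 8, 5 had a higher percentile as a gene among features with reads, 3 among all rows, where Dppa2 (73.2 as a gene, 77.2 as a PROMPT) and Dppa4 (70.3 and 73.4) turned, and 6 among features with a mean of at least 1, where Zscan10 turned. By the ratio of PROMPT to gene, 5 were under the median. Matches to motifs numbered 4 in the whole windows and 2 before the start alone. Among genes with a mean of at least 10, the lists had 85.6 (ES cell), 3.51 (fibroblast feeder), 9.42 (primitive endoderm), 14.0 (trophectoderm), 0 (neural), 20.2 (primitive streak and mesoderm), 89.7 (LIN28 and let-7), 64.4 (threonine and glycine), 92.4 (DPPA3 and methylation), 0 (relatives of Dppa5a) and 14.1 (DPPA2 and DPPA4 targets), all lower than among genes with reads, since fewer low genes are counted.

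The median share of repeated exon words over the 9 genes was 22.0% at 31 bases, 10.2% at 50 and 0.474% at 100, lengths chosen after seeing the data. Per kb of exon words found once at 31 bases, also chosen after seeing the data, the means were 57588 in Dppa5a, 3198 in Dppa4, 2185 in Dppa2 and 365 in Dppa3, which is 5.48, 2.97, 2.43 and 2.41 times the value per exon kb. Dppa4 and Dppa2 then came before Zscan10, at 1374, whereas per exon kb Zscan10 came before both. With words of 100 bases the 3 values were 2043, 1549 and 1591. Each word lies within 1 exon block, so word starts near block ends are left out of this length together with repeated words. At 100 bases Dppa3 and Zscan10 had 0% of words repeated, yet 1.78 and 1.24 times their values per exon kb. The change in order is therefore not due to repeated words alone by construction of the measure. Read pairs can be placed by either end, so these values are not a correction of the level.

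Values over 18 libraries from both depleted and control cells limit every statement to a pooled level. A mean with few reads, as for the PROMPTs of Dppa4 and Dppa2, is given with the range of reads behind it in place of an error.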
